A study of Mus musculus with 4 samples.

Results

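The circadian clock and PAR bZIP genes described here are *Hlf*, *Dbp*, *Tef*, *Per1*, *Per2*, *Per3*, *Nr1d1*, *Nr1d2*, *Arntl* and *Cry1*, 10 of the 27998 genes in the count tables. They were chosen because their UMIs had already been seen to differ between the libraries of these data, so all their levels and ratios are given as a description and none as a test. The question put to them was whether the low *Hlf* level of dystrophic satellite cells was shared by the rest of the clock, and by the other cell types captured in the same libraries. All 10 genes had UMIs in every library.

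Satellite cells, also called muscle stem cells (MuSCs), were sorted from lower hindlimb muscle and profiled cell by cell with the 3′ chemistry of 10X Genomics, in which each transcript captured in a cell is counted once as a unique molecular identifier (UMI). The 4 strains were B10 (C57/Bl10ScsSn by its label, 15 weeks old), *mdx* (C57BL/10ScSn-Dmdmdx, 11 weeks), DBA (DBA/2, 13 weeks) and D2-*mdx* (D2.B10-Dmdmdx, 14 weeks). The B10 and DBA mice are the healthy strains, and *mdx* and D2-*mdx* carry the *mdx* mutation of *Dmd*, the gene of dystrophin, on those backgrounds. Each strain was 1 library of sorted cells from 2 pooled mice. No strain therefore had a replicate, no test was run, and strain, age, sort and library cannot be told apart. The mice were male by the methods of the study. The intervals given below are 95% intervals that cover counting error only. The hour at which the mice were killed is not given in the sources used here, so a difference in clock phase between libraries cannot be told apart from a difference between strains.

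The clock of mammalian cells is a loop of transcription factors. ARNTL (also called BMAL1) pairs with CLOCK or NPAS2, binds E-boxes and switches on the *Per* and *Cry* genes, whose proteins then repress that pair. The same pair drives the nuclear receptors *Nr1d1* and *Nr1d2* (REV-ERBα and β), which repress *Arntl* and compete with the ROR receptors. It also drives the PAR bZIP factors *Dbp*, *Tef* and *Hlf*, which activate genes through D-boxes, where NFIL3 acts against them. Transcripts of *Dbp* and *Nr1d1* are therefore high at the opposite time of day to those of *Arntl*, and *Cry1* comes late in the cycle. *Hlf* is also known as a factor of quiescent stem cells of the blood.

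E-boxes and D-boxes are the sites through which the loop acts on its own genes, and the stretches below are shown because they hold the E-boxes (CACGTG, its own reverse complement) and D-boxes (TTATGTAA, or TTACATAA on the other strand) found in them. RefSeq promoters of 300 bases, from 250 bases before to 50 after each transcription start on GRCm38.p6, were searched on both strands. Of the 10 genes, 9 matched the promoter table, with 12 promoters, and *Per2* had no entry. The D-box letters stood in 1 of these promoters, that of *Per3*, where they came 2 times, 205 and 158 bases before the start. The E-box letters stood in 4 promoters, of *Cry1*, *Per1* and *Tef*. Over all 32851 promoters of this length, 7.15% held an E-box and 0.938% a D-box. No match in the windows of *Hlf*, *Dbp*, *Nr1d1*, *Nr1d2* and *Arntl* says only that these letters were not in them. Each sequence is written 5′ to 3′ on the strand of its gene, with the motif in capitals.
Per3, chr4:151044776-151044910, minus strand: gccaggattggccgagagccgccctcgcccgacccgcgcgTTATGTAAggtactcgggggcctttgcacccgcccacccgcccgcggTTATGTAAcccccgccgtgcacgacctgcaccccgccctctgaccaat
Cry1, chr10:85185069-85185154, minus strand: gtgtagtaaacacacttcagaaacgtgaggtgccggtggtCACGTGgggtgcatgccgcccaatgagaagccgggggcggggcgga
Per1, chr11:69098743-69098828, plus strand: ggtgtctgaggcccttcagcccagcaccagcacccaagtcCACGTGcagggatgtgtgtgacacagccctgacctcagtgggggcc
Tef, chr15:81802506-81802591, plus strand: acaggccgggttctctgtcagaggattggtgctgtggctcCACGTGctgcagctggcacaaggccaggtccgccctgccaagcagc
Tef, downstream start, chr15:81811236-81811321, plus strand: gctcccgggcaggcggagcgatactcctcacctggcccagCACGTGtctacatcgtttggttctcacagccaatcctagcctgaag

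In the deposited tables, 3539 to 9931 barcodes per library held UMIs, and 3279 to 6313 cells per library were kept, with a median of 6666 to 10434 UMIs per cell. The B10 library stood apart by 4739 barcodes with under 1000 genes, against 11 to 21 in the others. Kept cells of any 2 libraries shared 3 to 8 barcodes. Clusters were named by markers, and a name with "like" means no more than that. Myogenic cells were 96.4% of the kept B10 cells, 76.4% of *mdx*, 82.3% of DBA and 72.8% of D2-*mdx* cells, and MuSC-like cells, the clusters in which the mean of the MuSC markers (*Pax7*, *Myf5*, *Calcr*, *Chodl*, *Spry1* and *Heyl*) was the highest among the marker lists, were 93.7%, 66.6%, 93.7% and 68.7% of those. The rest were cycling-like, differentiating and DMD-enriched-like, and interferon-marked immunomyoblast-like cells, and, outside the myogenic cells, pericyte-like, glial-like, Schwann-like, endothelial-like, vascular smooth muscle-like, fibroblast or tenocyte-like and white blood cell-like cells. The sort gated against Cd31 and Cd45, so the endothelial-like and white blood cell-like cells were present despite it. *Dmd* (chrX:82948870-85206141, GRCm38) was 324 CPM in the myogenic cells of B10 and 120 CPM in those of *mdx*, and fell from 287 CPM for DBA to 94.4 CPM for D2-*mdx*. CPM are counts of a gene relative to all UMIs of the same cells, summed per library. The *mdx* mutation changes a single codon, so this lower level goes with the strain labels without showing the mutation itself.

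*Hlf* (chr11:90336536-90390895, minus strand, GRCm38) was low in both dystrophic libraries and high in both healthy ones. Summed over myogenic cells, it had 1336 UMIs in B10, or 33.5 CPM (31.7 to 35.3), and 86 in *mdx*, or 2.13 CPM (1.70 to 2.63). In DBA it had 822 UMIs, 27.3 CPM (25.5 to 29.2), and in D2-*mdx* 51 UMIs, 1.46 CPM (1.09 to 1.92). The healthy pair lay far above the dystrophic pair, and the intervals of *mdx* and D2-*mdx* overlapped. The log2 ratio of *mdx* over B10 was -3.98 (-4.31 to -3.66), 15.7-fold lower, and that of D2-*mdx* over DBA was -4.22 (-4.66 to -3.82), 18.7-fold lower. Among the 8478 genes with at least 10 CPM in B10 or *mdx*, 12 genes, *Hlf* included, had a log2 ratio this low or lower, and in D2-*mdx* over DBA they were 8 of 8503.

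The other PAR bZIP factors did not follow *Hlf* in size, and *Dbp* did not follow it in the order of the libraries, while *Tef* did. *Dbp* (chr7:45705088-45710203, plus strand), a D-box activator with a very strong daily rhythm, had 92.8 CPM (89.8 to 95.8) in B10 against 31.3 (29.6 to 33.1) in *mdx*, and 19.4 CPM (17.8 to 21.0) in DBA against 13.8 (12.6 to 15.1) in D2-*mdx*. Its healthy DBA library lay below the dystrophic *mdx* library, so the healthy and dystrophic libraries were not separated by it. *Tef* (chr15:81802421-81826863, plus strand), the third factor of the family, stood at 65.9 CPM (63.4 to 68.5) in B10 and 44.6 (42.2 to 47.0) in DBA, above the 35.4 (33.6 to 37.3) of *mdx* and the 20.5 (19.0 to 22.1) of D2-*mdx*. Both healthy libraries were above both dystrophic ones for *Tef*, by less than for *Hlf*, with log2 ratios of -0.90 (-0.99 to -0.80) on the B10 and -1.12 (-1.25 to -0.99) on the DBA background.

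The *Per* genes, whose proteins repress the ARNTL pair, were lower in the dystrophic library of each background. *Per1* (chr11:69095217-69109960, plus strand) went from 59.2 CPM (56.8 to 61.7) in B10 to 31.6 (29.9 to 33.4) in *mdx*, and from 41.2 CPM (39.0 to 43.6) in DBA to 17.9 (16.5 to 19.4) in D2-*mdx*. *Per2* (chr1:91415982-91459324, minus strand) was below the minimum of 10 CPM in all 4 libraries, with 8.47 CPM (7.59 to 9.43) for B10, 4.98 (4.31 to 5.71) for *mdx*, 9.0 (7.96 to 10.1) for DBA and 2.46 (1.97 to 3.04) for D2-*mdx*. Both genes had their healthy libraries above their dystrophic ones. *Per3* (chr4:151003652-151044665, minus strand) did not, since B10 had 34.9 CPM (33.1 to 36.8), *mdx* 17.4 (16.1 to 18.7), DBA 14.9 (13.5 to 16.3) and D2-*mdx* 8.73 (7.78 to 9.77). For *Per3* as for *Dbp*, DBA lay under *mdx*. *Cry1* (chr10:85131700-85185064, minus strand), the partner of the PER proteins in repression, was lowest in B10, with 6.07 CPM (5.33 to 6.88), and highest in DBA, with 12.8 (11.5 to 14.1), while *mdx* had 9.68 (8.74 to 10.7) and D2-*mdx* 9.22 (8.24 to 10.3). The *mdx* and D2-*mdx* intervals of *Cry1* overlapped.

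The REV-ERB receptors had the same order of ends, with B10 highest and D2-*mdx* lowest. *Nr1d1* (chr11:98767932-98775333, minus strand) had 136 CPM (133 to 140) in B10, 67.0 (64.1 to 70.0) in DBA, 52.7 (50.5 to 55.0) in *mdx* and 41.2 (39.1 to 43.3) in D2-*mdx*. *Nr1d2* (chr14:18204054-18239127, minus strand) came to 61.2 CPM (58.8 to 63.7) in B10, to 41.4 (39.2 to 43.8) in DBA, to 40.1 (38.2 to 42.1) in *mdx* and to 29.6 (27.8 to 31.5) in D2-*mdx*, and the intervals of *mdx* and DBA overlapped. *Arntl* (chr7:113207465-113314126, plus strand), the activator at the head of the loop, stood out in DBA, with 24.6 CPM (22.9 to 26.4). Its levels of 13.8 CPM (12.7 to 15.0) in B10, 14.8 (13.7 to 16.1) in *mdx* and 14.9 (13.6 to 16.2) in D2-*mdx* had overlapping intervals. Exons on the opposite strand overlap *Dbp* (*Sphk2*), *Tef* (*Gm17597*), *Nr1d1* (*Thra*) and *Arntl* (*Gm45355*), and how the counting treated strand is not given in the sources used here.

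**Figure D1:**
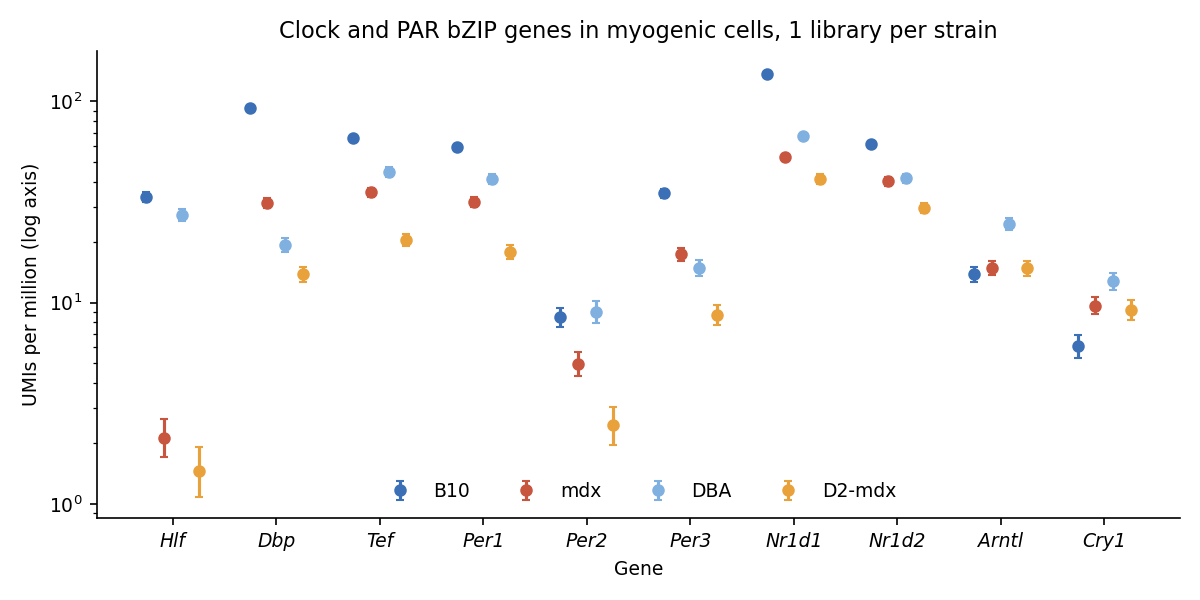
Level of each of the 10 genes in CPM (log axis) in the summed myogenic cells of the 4 libraries, 1 point per library with its 95% Poisson interval. *Hlf* has a gap between the healthy libraries (33.5 and 27.3 CPM) and the dystrophic ones (2.13 and 1.46 CPM), while *Dbp*, *Per3*, *Arntl* and *Cry1* do not part by disease.

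Counted over the 10 genes, 8 passed the minimum of 10 CPM in *mdx* over B10 in myogenic cells. Of these, 4 were at least 2-fold lower (*Hlf*, *Dbp*, *Per3*, *Nr1d1*) and 0 were at least 2-fold higher, while 5.17% of all 8478 genes were at least 2-fold lower and 4.71% higher. *Per3* lay at the 2-fold line, and 3 genes were past it with the library sizes of edgeR or DESeq2, where *Per3* was -0.95. Their median log2 ratio was -0.95, against -0.03 over all genes. In D2-*mdx* over DBA, 9 passed, of which 3 were at least 2-fold lower (*Hlf*, *Tef*, *Per1*) and 0 higher, with 5.86% of all 8503 genes lower and 5.83% higher, and with a median of -0.73 against -0.07. *Hlf* was the only gene that crossed 2-fold in both comparisons. Required to lie at least 2-fold below both healthy libraries in both dystrophic ones, *Hlf* remained and the other 8 genes past the minimum did not, where 2.62% of 8817 genes did so. In MuSC-like cells *Hlf* was again the only one to do so, beside 1.29% of all genes, and 0 of the 10 lay at least 2-fold above both healthy libraries, beside 3.13% in myogenic and 1.74% in MuSC-like cells. As the genes were chosen on these values, the shares describe them and show nothing further.

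**Figure D2:**
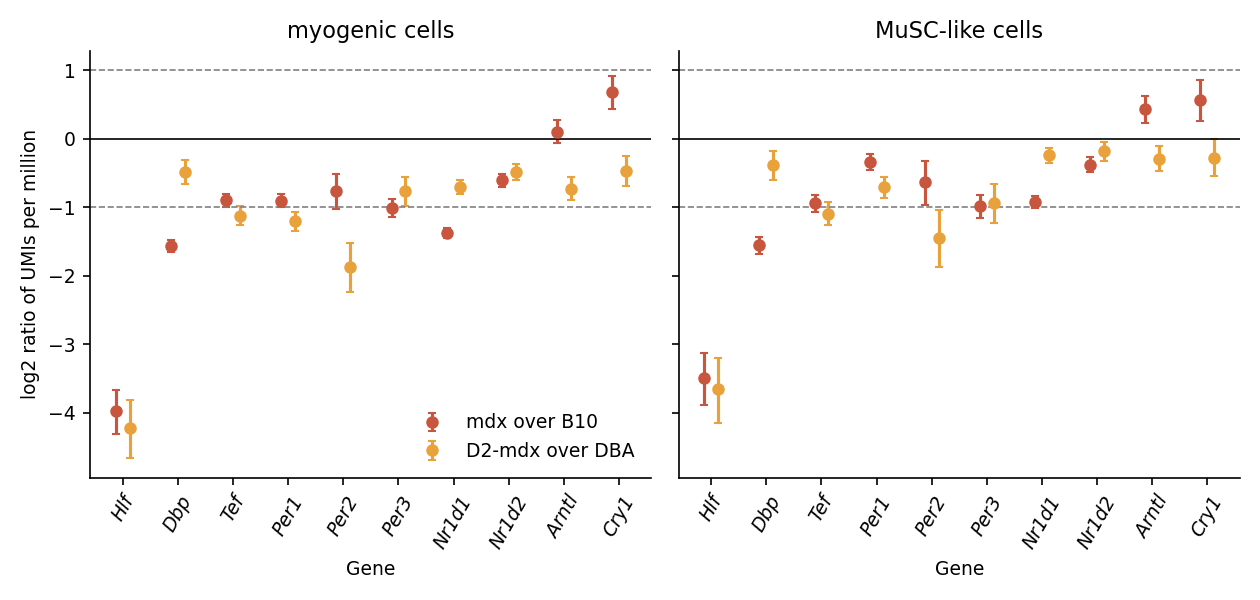
Log2 ratio of each gene in myogenic and in MuSC-like cells, for *mdx* over B10 and for D2-*mdx* over DBA, with 95% counting intervals and the 2-fold lines. *Hlf* is at -3.98 and -4.22 in the myogenic cells, and the other 9 genes lie between -1.87 and 0.67 there.

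The myogenic cells of the dystrophic libraries held fewer MuSC-like cells, so the genes were taken within the MuSC-like cells as well. There *Hlf* had 35.0 CPM (33.1 to 37.0) in B10 and 28.9 (26.9 to 31.0) in DBA, and 3.11 (2.38 to 3.99) in *mdx* and 2.29 (1.64 to 3.11) in D2-*mdx*. The gap remained, with log2 ratios of -3.49 (-3.88 to -3.12) and -3.66 (-4.15 to -3.20), or 11.3-fold and 12.6-fold lower. *Pax7*, the defining gene of MuSCs, had 924, 551, 723 and 618 CPM in these cells, which is a much smaller difference. *Dbp* kept its ratio on the B10 background, -1.55 (-1.68 to -1.43), as did *Tef* on both, -0.94 (-1.07 to -0.82) and -1.09 (-1.26 to -0.93), and *Per3* with -0.99 and -0.94. *Per1*, *Nr1d1* and *Nr1d2* moved closer to 0: *Per1* from -0.90 and -1.20 to -0.34 and -0.71, *Nr1d1* from -1.37 and -0.70 to -0.92 and -0.24, and *Nr1d2* from -0.61 and -0.49 to -0.38 and -0.18. For these 3 genes the difference was smaller within the MuSC-like cells than over all myogenic cells. *Per2* had -0.64 and -1.45. *Arntl* was 0.43 (0.24 to 0.63) in *mdx* over B10 and -0.29 (-0.48 to -0.10) in D2-*mdx* over DBA, and *Cry1* 0.56 and -0.28. Past 2-fold were *Hlf* and *Dbp* in the first comparison and *Hlf* and *Tef* in the second, all lower, with 3.33% and 3.61% of all genes lower there. None of the 10 genes was past 2-fold in the other direction, in which 2.96% and 3.64% of all genes were.

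Within the MuSC-like cells, *Hlf* was low in the dystrophic libraries in each cluster with enough UMIs to read. In the largest, led by immediate-early genes such as *Fosb*, *Junb* and *Atf3* (2647 B10, 2192 *mdx*, 1606 DBA and 2066 D2-*mdx* cells), *Hlf* had 32.0, 3.39, 25.6 and 1.84 CPM. In the next, which had the lowest immediate-early level of the 5, *Hlf* had 40.6, 2.07, 34.2 and 0.866 CPM, from 343, 10, 246 and 3 UMIs. Its ratios in that cluster were -4.30 (-5.37 to -3.40) and -5.30 (-7.59 to -3.74), and the part of the immediate-early genes in them was not tested. In a small cluster led by cholesterol synthesis genes, *Hlf* had 34 UMIs in B10 and 0 in *mdx*, where a count of 3 would be 8.96 CPM. It had 40 UMIs in DBA against 5 in D2-*mdx*. In the cluster led by *Dlk1* and *Hhip* it had 48.0, 9.34, 46.2 and 12.5 CPM. The last cluster, of lowest depth and led by *Gm42418* and *Hbb-bs*, held 1 *Hlf* UMI in each dystrophic library, against 47 in B10 and 10 in DBA.

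Among the other myogenic states, cycling-like cells had less *Hlf* than MuSC-like cells already in health: 9.85 CPM (5.38 to 16.5) in B10 and 12.4 (6.61 to 21.2) in DBA, against 1.23 (0.452 to 2.68) in *mdx* and 0.407 (0.0840 to 1.19) in D2-*mdx*. Differentiating and DMD-enriched-like cells had 7.74 and 6.54 CPM of *Hlf* in B10 and DBA, and 1.14 and 0.744 in *mdx* and D2-*mdx*. The mix of cells in this class differed between the libraries, as given below. In health *Hlf* was thus higher in MuSC-like than in cycling-like or differentiating cells, and in dystrophy it was low in each of them. Immunomyoblast-like cells of B10 had 35.7 CPM (24.4 to 50.4), like the MuSC-like cells, from 32 UMIs, and those of *mdx* held 1 *Hlf* UMI. In D2-*mdx* they held 0 *Hlf* UMIs in 31 cells, where a count of 3 would be 11.1 CPM. The values of these small classes rest on 0 to 32 UMIs of *Hlf* per library.

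The ratios of the other clock genes also varied with the state of the cells. *Dbp* in the immediate-early cluster of MuSC-like cells had 92.4 CPM in B10 and 33.6 in *mdx*, with 19.3 in DBA and 15.4 in D2-*mdx*, and in the cluster of lowest immediate-early level it had 105 and 28.7, with 20.4 and 13.9. The order of the libraries for *Dbp* was the same in both clusters. *Nr1d1* in these clusters had 142 and 124 CPM in B10, 80.4 and 45.3 in *mdx*, 71.5 and 64.9 in DBA, and 62.6 and 41.6 in D2-*mdx*, so that *mdx* lay above DBA in the first and below it in the second. In cycling-like cells *Dbp* was -2.23 (-2.74 to -1.73) in *mdx* over B10 and 0.06 (-1.18 to 1.58) in D2-*mdx* over DBA, the latter on 44 and 6 UMIs, and *Per1* was -1.17 (-1.72 to -0.61) and -1.92 (-2.63 to -1.19). *Arntl*, which was higher in *mdx* than in B10 MuSC-like cells, was lower in cycling-like cells, at -1.13 (-1.90 to -0.35), and -1.57 (-2.32 to -0.78) in D2-*mdx* over DBA. In differentiating and DMD-enriched-like cells *Per1* was -1.55 (-2.03 to -1.04) and -0.94 (-1.55 to -0.28), *Nr1d1* -1.64 (-1.97 to -1.28) and -0.70 (-1.11 to -0.26), and *Tef* -0.31 (-0.73 to 0.15) and -0.21 (-0.69 to 0.31). *Tef* was thus much closer to equal in these cells than in MuSC-like cells. *Cry1* there was 0.71 (-0.54 to 2.36) and -1.38 (-2.08 to -0.64), with 17.4 CPM in DBA against 6.70 in D2-*mdx*. The mix within this class differed between the libraries. Clustered more finely, at a resolution of 0.4, DMD-enriched-like and differentiating-like cells numbered 13 and 35 in B10 and 876 and 226 in *mdx*. They numbered 25 and 50 in DBA and 552 and 204 in D2-*mdx*. The part of this mix in the ratios of the class was not tested.

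**Figure D3:**
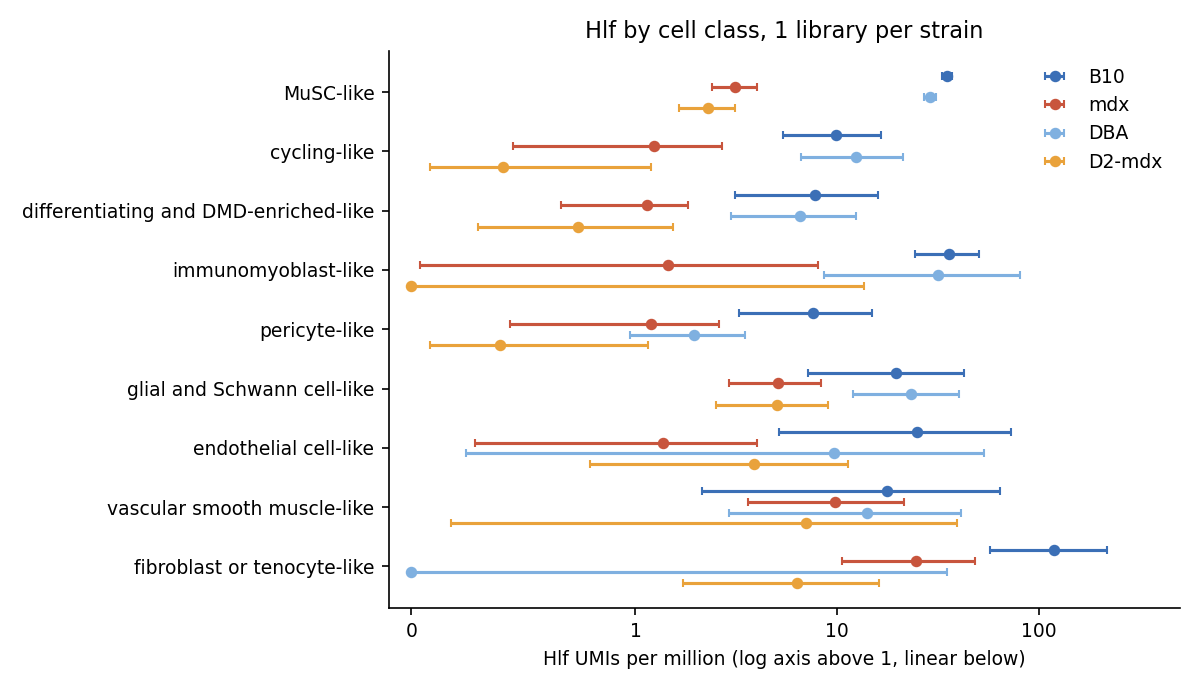
*Hlf* level in CPM by cell class and library, with 95% Poisson intervals. Glial-like and Schwann-like cells are drawn together, and white blood cell-like cells are not drawn. In MuSC-like, cycling-like, and differentiating and DMD-enriched-like cells the dystrophic libraries lie under the healthy ones. Immunomyoblast-like cells are not ranked, as their *Hlf* UMIs in the dystrophic libraries were too few. Taken alone, which is not drawn, the Schwann-like cells had 20.3, 21.6, 45.2 and 19.2 CPM in B10, *mdx*, DBA and D2-*mdx*, with wide intervals that overlap.

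The *Hlf* UMIs were also counted per cell. With every cell thinned to 3000 UMIs, an *Hlf* UMI was found in 383 of 4102 B10 MuSC-like cells (9.34%, 8.46 to 10.3), in 32 of 3209 *mdx* cells (0.997%, 0.683 to 1.40), in 188 of 2530 DBA cells (7.43%, 6.44 to 8.52) and in 18 of 2878 D2-*mdx* cells (0.625%, 0.371 to 0.987). The 95% binomial intervals are exact. Of the B10 cells with *Hlf*, 303 had 1 UMI, 63 had 2 and 17 had more, while in *mdx* 31 had 1 and 1 had 2. The mean number of *Hlf* UMIs in a cell with any was 1.26 in B10 against 1.03 in *mdx*, and 1.15 in DBA against 1.11 in D2-*mdx*, and at counts this sparse the share of cells and the level per cell cannot be told apart. Unthinned, the *Hlf* shares were 19.3%, 1.71%, 20.2% and 1.32%, and only B10 lost cells to the thinning, 37 that were shallower. Pericyte-like cells, thinned alike, gave *Hlf* shares of 3.16%, 0.164%, 0.621% and 0.204%, the second and the last from 1 and 2 cells. In each library the MuSC-like share of *Hlf* was above that of the pericyte-like cells of the same library. The pericyte-like shares rest on few cells with *Hlf* and have no interval here, so this order is a description.

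The thinned shares of the other genes in MuSC-like cells followed their CPM. *Nr1d1* was found in 33.2% of the cells in B10 and 19.5% in *mdx*, and in 17.4% in DBA and 14.4% in D2-*mdx*, and *Dbp* in 23.5%, 7.98%, 5.85% and 4.41%. For *Tef* the shares were 18.7%, 10.3%, 12.6% and 6.43%. For these 3 genes B10 was the highest and D2-*mdx* the lowest library. *Arntl* was found in 3.53%, 5.80%, 6.84% and 6.12% of the cells and *Cry1* in 1.49%, 2.24%, 3.48% and 2.78%, so that B10 was lowest for both. Cells with an *Hlf* UMI in B10 held a *Dbp* UMI in 31.9% (27.2 to 36.8) of cases, against 22.6% (21.3 to 24.0) of cells without one. For *Nr1d1* the shares were 33.2% in both. *Tef* was found in 24.9% (22.2 to 27.8) of the B10 cells with *Dbp* and in 16.9% (15.6 to 18.2) of those without. In sparse counts such co-detection is weak and is given as a description.

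Pericyte-like cells were the best counted cells outside the myogenic lineage, with 97 cells in B10, 483 in DBA, 608 in *mdx* and 978 in D2-*mdx*, and their low *Pax7* (9.54 to 47.3 CPM) set them apart from MuSC-like cells. *Hlf* was scarce in them, with 8 UMIs in B10 (7.57 CPM, 3.27 to 14.9), 6 in *mdx* (1.19 CPM, 0.438 to 2.60), 11 in DBA (1.95 CPM, 0.975 to 3.49) and 3 in D2-*mdx* (0.394 CPM, 0.0812 to 1.15). The *Hlf* ratios were still below 0, at -2.67 (-4.47 to -0.95) and -2.31 (-4.79 to -0.39), with intervals that reach from a small to a very large difference. The 8 quiescence genes of MuSCs (*Pax7*, *Calcr*, *Chodl*, *Spry1*, *Hey1*, *Heyl*, *Notch3* and *Cd34*) summed to 1306 CPM for B10 and 1059 for *mdx* in these cells, and 1265 for DBA and 871 for D2-*mdx*. Of the 7 measured, 3 were at least 2-fold lower in *mdx* over B10 (*Pax7*, *Chodl* and *Cd34*), where 5.83% of all genes were, and 1 in D2-*mdx* over DBA (*Chodl*), where 3.71% were, and their part in the *Hlf* values was not tested. The other clock genes parted by background in these cells. In *mdx* over B10, *Nr1d1* was -1.61 (-1.98 to -1.24), *Dbp* -0.79 (-1.43 to -0.11), *Tef* -0.82 (-1.41 to -0.20) and *Nr1d2* -0.65 (-1.05 to -0.24). In D2-*mdx* over DBA, *Dbp* was higher, 84 UMIs against 24, with 1.37 (0.70 to 2.09), and *Nr1d1* 173 against 99, with 0.37 (0.00 to 0.74). *Tef*, *Per1*, *Per3* and *Nr1d2* were between -0.02 and 0.04 there. So on the DBA background *Dbp* and *Nr1d1* were lower in MuSC-like cells and higher in pericyte-like cells of the same dystrophic library, while *Hlf* was lower in both.

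Counted as before, 1 of 8 genes past the minimum was at least 2-fold lower in pericyte-like cells of *mdx* over B10 (*Nr1d1*, as were 5.83% of all genes) and 0 higher (2.04% of all genes). In D2-*mdx* over DBA 1 of 7 was at least 2-fold higher (*Dbp*, as were 2.28% of all genes) and 0 lower (3.71% of all genes). *Arntl* and *Cry1* were within their counting error of 0 in *mdx* over B10, at 0.12 (-0.55 to 0.85) and -0.22 (-1.15 to 0.83). *Arntl* was -0.51 (-0.83 to -0.20) in D2-*mdx* over DBA.

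In glial-like and Schwann-like cells together (37, 436, 42 and 278 cells), *Hlf* had 6, 16, 12 and 11 UMIs, or 19.6, 5.11, 23.1 and 5.05 CPM. The ratios were -1.94 (-3.37 to -0.30) and -2.20 (-3.52 to -0.89), below 0 on both backgrounds. Quiescence genes were lower in these cells as well. Of the 8, 6 were at least 2-fold lower in *mdx* over B10 (12.2% of all genes were, and 9.66% higher) and 7 in D2-*mdx* over DBA (9.3% of all genes were, and 6.65% higher), with medians of -1.40 and -1.37. Their summed level was 1480 CPM for B10 and 588 for *mdx*, and 1725 for DBA and 610 for D2-*mdx*, and their part in the *Hlf* difference was not tested. Taken alone, the glial-like cells had *Hlf* at 19.3, 2.58, 17.2 and 2.68 CPM, while the Schwann-like cells had 2, 9, 5 and 6 *Hlf* UMIs and ratios of 0.09 (-2.18 to 3.34) and -1.23 (-3.21 to 0.82). *Dbp* in glial-like and Schwann-like cells was 0.03 (-1.09 to 1.39) and -0.53 (-1.51 to 0.55), and *Tef* 0.05 (-0.75 to 0.95) and -0.91 (-1.52 to -0.27). *Nr1d1* was -1.05 (-1.59 to -0.47) and -0.34 (-0.96 to 0.31). Over all non-myogenic cells *Hlf* had 17.1, 3.32, 4.78 and 1.81 CPM, with ratios of -2.37 (-3.09 to -1.63) and -1.40 (-2.22 to -0.60), but the mix of cell types differed between these libraries. Endothelial-like cells of *mdx* (252 cells) had 1.37 CPM (0.282 to 3.99) of *Hlf* and those of D2-*mdx* (88 cells) 3.86 (0.797 to 11.3), while B10 and DBA held 14 and 9 such cells with 3 and 1 *Hlf* UMIs. *Nr1d1* in the endothelial-like cells was 216 CPM (141 to 316) in B10 and 48.7 (39.9 to 58.9) in *mdx*. High *Hlf* levels came from few cells: the 7 fibroblast or tenocyte-like cells of B10 held 10 *Hlf* UMIs, 119 CPM (57.1 to 219), against 24.5 CPM (10.6 to 48.3) in 29 such cells of *mdx*. The intervals of the *Hlf* ratio in pericyte-like cells, and in glial-like and Schwann-like cells together, overlapped those in MuSC-like cells on both backgrounds. Overlap does not show ratios of equal size, and each of these ratios was smaller in size than the MuSC-like one of its background. Over all non-myogenic cells the intervals lay above the MuSC-like intervals on both backgrounds, but the mix of cell types differed there. Whether the size differed between the cell types was not tested. The Schwann-like cells alone, on 11 UMIs of *mdx* and B10 together, lay above the MuSC-like interval in *mdx* over B10.

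**Figure D4:**
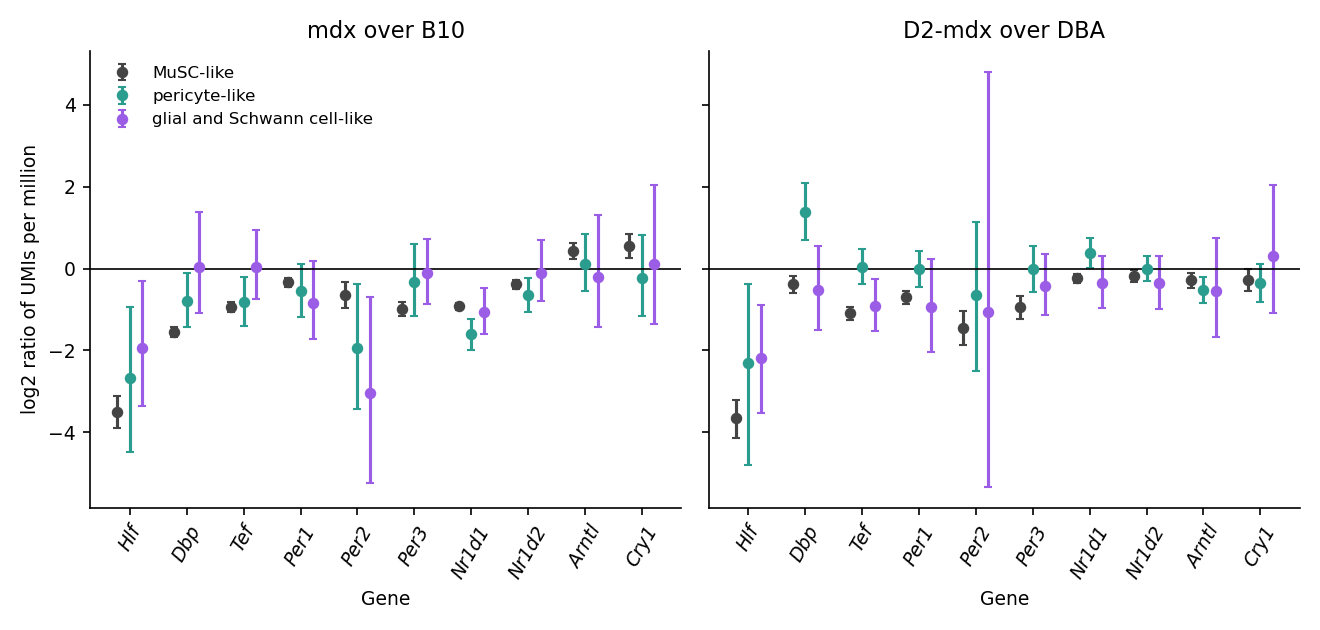
Log2 ratio of each gene in MuSC-like, pericyte-like, and glial-like plus Schwann-like cells, for both disease comparisons, with 95% counting intervals. *Hlf* is below 0 in all 3 cell types and both comparisons, whereas *Dbp* in D2-*mdx* over DBA is -0.39 in MuSC-like and 1.37 in pericyte-like cells.

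Summed over the genes known to be driven through E-boxes (*Dbp*, *Tef*, *Per1*, *Per2*, *Per3*, *Nr1d1*, *Nr1d2* and *Ciart*), the MuSC-like log2 ratio was -0.85 in *mdx* over B10 and -0.52 in D2-*mdx* over DBA. In pericyte-like cells the sum was -0.96 and 0.17 (0.01 to 0.34), and in glial-like and Schwann-like cells -0.44 and -0.53. On the B10 background the sum was therefore lower in *mdx* in all 3 cell types, by a similar amount in MuSC-like and pericyte-like cells, and on the DBA background it was lower in MuSC-like cells and slightly higher in pericyte-like cells. The core activators (*Arntl*, *Arntl2*, *Clock*, *Npas2*) summed to -0.06 and -0.33 in MuSC-like cells and to -0.54 and -0.79 in pericyte-like cells. The log2 ratio of the E-box-driven sum to the activator sum is given as a description of both sums. Whether it follows the phase of the clock was not tested. In MuSC-like cells B10 had 2.06 (2.01 to 2.11), *mdx* 1.27 (1.20 to 1.34), DBA 0.85 (0.79 to 0.91) and D2-*mdx* 0.66 (0.57 to 0.74). In pericyte-like cells it was 0.47 (0.20 to 0.73), 0.05 (-0.10 to 0.21), -0.78 (-0.94 to -0.62) and 0.18 (0.03 to 0.33). B10 was highest in both cell types, and DBA was the lowest library in pericyte-like cells but above D2-*mdx* in MuSC-like cells. In MuSC-like cells *Hlf* had another order, with B10 and DBA together above *mdx* and D2-*mdx*. In pericyte-like cells its intervals in DBA and *mdx* overlapped. Over all myogenic cells *Tef*, *Per1*, *Per2* and *Nr1d1* also had both healthy libraries above both dystrophic ones, by less than *Hlf*.

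In MuSC-like cells the healthy strains themselves differed more in several clock genes than in *Hlf*. These ratios share their libraries with the disease comparisons and are set beside them only as values. In MuSC-like cells, DBA over B10 was -2.25 (-2.38 to -2.12) for *Dbp*, -1.23 (-1.39 to -1.07) for *Per3* and -0.99 (-1.07 to -0.92) for *Nr1d1*. It was 1.01 (0.76 to 1.26) for *Cry1* and 0.85 (0.68 to 1.02) for *Arntl*. *Dbp*, *Per3* and *Nr1d1* were thus lower in DBA while *Arntl* and *Cry1* were higher, and *Dbp* was 4.75-fold lower. *Hlf* was -0.28 (-0.41 to -0.15), *Tef* -0.56, *Per1* -0.49, *Nr1d2* -0.55 and *Per2* 0.09 (-0.15 to 0.33). At least 2-fold lower were *Dbp* and *Per3*, with 1.82% of all genes lower, and *Cry1* was at least 2-fold higher, with 1.87% of all genes higher. In pericyte-like cells *Dbp* and *Nr1d1* had ratios of the same sign, -2.64 (-3.49 to -1.80) and -2.46 (-2.87 to -2.04), and *Per2* -2.61 (-4.30 to -0.95). *Hlf* was 3.88-fold lower in DBA there as well, on 11 and 8 UMIs, with a log2 interval of -3.40 to -0.44.

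Between the dystrophic libraries, D2-*mdx* over *mdx* in MuSC-like cells, *Dbp* was -1.09 (-1.30 to -0.88), *Per3* -1.19 (-1.48 to -0.91), *Per1* -0.86 (-1.02 to -0.69), *Per2* -0.72 and *Tef* -0.71. *Dbp* and *Per3* were again the genes past 2-fold, both lower, where 1.72% of all genes were, and 0 were higher, where 1.88% were. *Arntl* was 0.13 (-0.09 to 0.34) and *Cry1* 0.17 (-0.13 to 0.48), so the higher *Arntl* and *Cry1* of DBA over B10 had no readable counterpart. *Hlf* was -0.44 (-1.05 to 0.15).

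**Figure D5:**
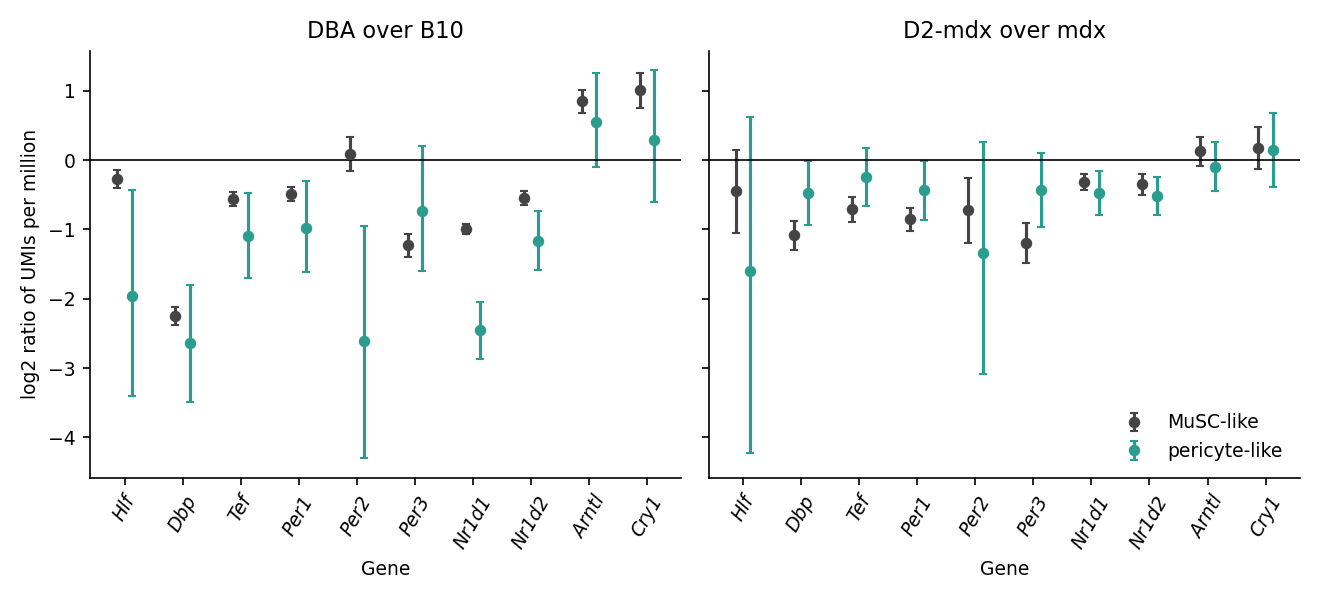
Log2 ratio of each gene for the 2 comparisons of strain background, DBA over B10 and D2-*mdx* over *mdx*, in MuSC-like and pericyte-like cells, with 95% counting intervals. In MuSC-like cells *Dbp* has the most negative ratio of DBA over B10 (-2.25), *Arntl* and *Cry1* lie above 0, and *Hlf* is at -0.28, and at -0.44 in D2-*mdx* over *mdx*.

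Other genes of the clock were taken from lists chosen with earlier results of these data known. Of the 4 PAR bZIP and *Nfil3* genes, *Nfil3*, the repressor that acts on the same D-boxes, was the one that was higher: in MuSC-like cells it had 112 CPM in *mdx* against 29.1 in B10, a log2 ratio of 1.95 (1.85 to 2.06), and 83.5 in D2-*mdx* against 22.2 in DBA, 1.91 (1.77 to 2.05). In pericyte-like cells *Nfil3* was 0.54 and -0.72. The D-box repressor and the D-box activator *Hlf* thus lay on opposite sides in the dystrophic MuSC-like cells. Of the 3 measured core activators, none was past 2-fold in MuSC-like cells. Of all genes, 3.33% and 3.61% were lower by 2-fold there, and 2.96% and 3.64% higher. *Npas2* was -0.55 and -0.63 and *Clock* -0.08 and -0.27. Of the 10 repressors, 7 and 8 were measured and 0 were lower by 2-fold in MuSC-like cells, where 3.33% and 3.61% of all genes were. *Per3* lay just short of that line, at -0.99 and -0.94, and *Nr1d1* was -0.92 and -0.24. *Bhlhe40*, which competes for E-boxes, was higher in D2-*mdx* over DBA at 1.20 (1.13 to 1.27) and 0.28 in *mdx* over B10. *Bhlhe41* was -0.90 and -0.18, and *Cry2* -0.19 and -0.28.

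*Rora*, a receptor that opposes REV-ERB, was -0.45 and -0.69 in MuSC-like cells, and *Rorb* was below the minimum. The list of clock kinases and ligases, with *Timeless*, held 8 genes, of which 6 were measured and 0 were past 2-fold. Of all genes, 3.33% and 3.61% were lower by 2-fold there and 2.96% and 3.64% higher. *Csnk1d* was -0.09 and -0.46 and *Csnk1e* 0.01 and -0.19. Among the 5 clock outputs, *Usp2*, a ubiquitin protease with a strong rhythm, was lower on both backgrounds, 49.0 against 105 CPM, -1.11 on the log2 scale, and 37.3 against 148 CPM, -1.99 (-2.11 to -1.87). *Wee1*, the kinase that holds cells before mitosis, was higher, 0.98 (0.87 to 1.09) and 1.43 (1.27 to 1.59). The outputs therefore did not share a direction. Of the 7 glucocorticoid-induced genes, which include *Per1*, *Tsc22d3* was higher in *mdx* over B10 at 1.19 (1.13 to 1.26) and -0.06 (-0.16 to 0.05) in D2-*mdx* over DBA, and *Zbtb16* was -0.76 and -0.64.

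Some lists that are no part of the clock moved with the libraries. The 17 immediate-early and dissociation genes had median MuSC-like ratios of 0.39 and 0.47, and 0 and 5 of them were at least 2-fold higher, where 2.96% and 3.64% of all genes were. Their summed level in MuSC-like cells was 47816 CPM in B10 and 40174 in DBA, and 57552 in *mdx* and 58289 in D2-*mdx*. The 8 quiescence genes had medians of -0.33 and -0.30, with 0 past 2-fold, so *Hlf* differed far more than they did. Transcripts of myofibres and red blood cells, taken as free RNA, differed as well: all 6 measured genes of 8 were at least 2-fold higher in MuSC-like cells on both backgrounds, where 2.96% and 3.64% of all genes were, and their sum was 42.5, 948, 340 and 1440 CPM. These sums were uneven over the MuSC-like clusters. The cluster of lowest depth held 9242 of these UMIs in *mdx* (30170 CPM, against 55.4 in B10), and the cluster of lowest immediate-early level held 14762 in D2-*mdx* (4261 CPM, against 35.2 in DBA). In the *Dlk1* and *Hhip* cluster free RNA summed to 46.0 CPM for B10 and 28.0 for *mdx*, and to 25.4 for DBA and 104 for D2-*mdx*. The *Hlf* ratios there were -2.36 (-4.69 to -0.73) and -1.89 (-3.18 to -0.80). The part of the immediate-early genes and the free RNA in the differences of *Hlf* and of the other clock genes was not tested. The 4739 B10 barcodes under 1000 genes held 56 *Hlf* UMIs, 20.9 CPM.

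Among the genes whose levels were most like those of *Hlf* over 27 sums of a library and a cell class with at least 50 cells, as log2(CPM + 1), were *mt-Atp8* (Pearson's r of 0.824), *Cdh4* (0.787) and *Slc4a4* (0.757). Among the other clock genes, *Per1* came closest to *Hlf*, at 0.711, and then *Tef* (0.679), *Nr1d1* (0.643), *Nr1d2* (0.617) and *Dbp* (0.507), whereas *Arntl* (0.0667) and *Cry1* (0.0247) had almost no linear relation with it. Like *Hlf*, the cadherin *Cdh4* was low in myogenic cells of both dystrophic libraries, -3.52 (-3.89 to -3.16) and -5.41 (-6.26 to -4.68), and so was the bicarbonate transporter *Slc4a4*, -2.84 and -2.87. For *Dbp* the most alike were *Nr1d1* (0.846), *Glrb* (0.813), *Unkl* (0.795), *Tef* (0.783) and *A430033K04Rik* (0.776). So the genes nearest to *Dbp* included clock genes, and those nearest to *Hlf* included none. The sums share libraries and differ in depth, and the correlations are a description without a test.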

How the data were processed

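Reads of 4 libraries were aligned to mm10 and counted by the authors with Cell Ranger 3.0.1, and they deposited raw UMI counts per gene and barcode, without normalization. Whether the counting used strand, and how barcodes were called, is not given in the sources used here. Barcodes under 1000 or over 5000 genes, or over 8% mitochondrial UMIs, were dropped, and the expected share of doublets was removed by Scrublet score (scanpy 1.11.5). Libraries were integrated and clustered in Seurat 5.3.0 (2000 features, 30 dimensions, resolution 0.1, and 0.2 for myogenic cells), and clusters with at least 3 detected markers were named. UMIs were summed per library and cell class and divided by all UMIs of that class (CPM). Depth was 39889414, 40389757, 30112218 and 34932076 UMIs over the myogenic cells (B10, *mdx*, DBA, D2-*mdx*), and it sets the exact 95% Poisson intervals printed. Ratio intervals came from the exact binomial share of a pair of counts, and both were tested on simulated data. A gene counted as past 2-fold if it had at least 10 CPM in 1 library of the pair, and a count of 0 was set to 3. Cells were thinned to 3000 UMIs for shares. With 1 library per strain no test was run. Alternatives covered cell filters, clustering, thinning, CPM minimum and library sizes of edgeR 4.0.16 and DESeq2 1.42.0. Coordinates are from GENCODE M21, and promoters from RefSeq.

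The genes described, the gene lists and the comparisons were chosen with earlier results of these data known. The genes named are *Dmd*, the 10 clock genes, up to 5 genes per list by size of change, and the 5 genes most like *Hlf* and *Dbp* each. A few genes that this rule names are not reported here. Proteins and other parts of the series were not analysed here.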

Additional observations from a re-analysis of the deposited data

Results flagged for a closer look

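On the DBA background, 2 clock genes had opposite signs in the MuSC-like and the pericyte-like cells of the same pair of libraries. The log2 ratio of D2-*mdx* over DBA for *Dbp* was -0.39 in MuSC-like cells and 1.37 in pericyte-like cells. For *Nr1d1* it was -0.24 in MuSC-like cells and 0.37 in pericyte-like cells.

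*Cry1* had opposite signs in the disease comparisons, with 0.67 in *mdx* over B10 and -0.47 in D2-*mdx* over DBA in myogenic cells. With 1 library per strain, these differences were not tested.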

How the results depend on the processing

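No paired analysis was possible because each strain was a single library and the labels give no replicate numbers. None of the alternatives could leave out a replicate for the same reason. Of 94 values recomputed for the main results, 76 moved by less than their counting interval, or by at most 1.5 times for counts of genes, and of 162 values for single genes 119 did so. No main result reversed under an alternative on the same cells. *Hlf* in *mdx* over B10 was -3.98 on the log2 scale in myogenic cells, -3.49 with MuSC-like cells only, -4.64 outside the cluster led by immediate-early genes, and, within MuSC-like cells, -4.02 without integration. Without integration the clusters largely followed the libraries. Those with MuSC markers held 4321 B10 and 90 *mdx* cells in one and 2579 DBA and 26 D2-*mdx* cells in the other. Most myogenic cells of the dystrophic libraries lay elsewhere, with 4134 *mdx* cells and 3524 D2-*mdx* cells in separate clusters. For this value, clusters were matched to the main clustering and not named by markers, so these large dystrophic clusters counted as MuSC-like. As 3209 *mdx* cells were MuSC-like in the main clustering, the 4134 included other myogenic states. In D2-*mdx* over DBA the *Hlf* ratio was -4.22, and -3.66 with MuSC-like cells only. The number of clock genes at least 2-fold lower in *mdx* over B10 was 4, and it was 2 with a minimum of 50 CPM, 7 at 1.5-fold and 2 with MuSC-like cells only. In D2-*mdx* over DBA it was 3, and 0 with a minimum of 50 CPM, 6 at 1.5-fold and 6 with at least 500 genes per cell and no upper limit. With that minimum *Hlf* itself is no longer counted, as its healthy levels are below 50 CPM. The difference in the share of MuSC-like cells with an *Hlf* UMI, -8.34 percentage points for *mdx* minus B10, was -5.83 with 2000 UMIs per cell, -11.4 with 5000 and -17.6 without thinning, and -6.81 for D2-*mdx* minus DBA became -5.18, -11.2 and -18.9. These follow from the number of UMIs kept. The summed E-box-driven genes of pericyte-like cells, -0.96 in *mdx* over B10 and 0.17 in D2-*mdx* over DBA, were -0.44 and -0.53 in glial-like and Schwann-like cells, a change of sign for the second, and the cause was not tested. *Arntl* in *mdx* over B10, 0.10 in myogenic cells, was -0.14 outside the immediate-early cluster. Other library sizes shifted all ratios by 0.05 to 0.08. *Hlf* without the MuSC-like cluster of lowest depth, an alternative chosen after seeing the data, was -3.47 and -3.68. Depth limits *Hlf* in the small classes, with 3 to 16 UMIs per library in pericyte-like and in glial-like and Schwann-like cells and 0 to 32 in the small myogenic states.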
